A study of Mus musculus with 15 samples.

Results

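The immunoglobulin variable genes were read from mRNA-Seq of podocyte fractions, with 193 members chosen as every gene whose symbol starts with Ighv, Igkv or Iglv and that had 10 or more counts summed over the 13 libraries used. They were 193 of 348 annotated variable genes and 193 of 46078 genes in the table, namely 96 of 185 heavy chain genes (Ighv, chromosome 12), 94 of 160 kappa genes (Igkv, chromosome 6) and 3 of 3 lambda genes (Iglv, chromosome 16). The choice used the summed counts, so the level of a member is a description. Another 107 annotated genes had no count in any library and 48 had 1 to 9 counts. The genes nearest the limit were Ighv8-6 and Ighv1-30 with 9 counts, just outside, and Ighv1-62 with 11, just inside. Each of the 3 groups alone brought 153 of the members to 10 counts, and for 3 members only the aged IgG2a libraries, for 4 only the aged aPD1ab libraries and for 3 only the young libraries did so. Of the members, 8 were annotated as pseudogenes, which together held at most 0.397% of the variable gene counts of a library.

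The mice were male C57BL/6J animals. Young mice were 4 months old and uninjected, and the aged mice were 21 months old and received 12 mg/kg weekly for 8 weeks of either a control IgG2a antibody (clone 2A3; aged IgG2a) or an anti-PD-1 antibody (clone RMP1-14; aged aPD1ab), although the titles of the aPD1ab samples say 47 days. The labels list 5 mice per group, and the columns tied to a group were 5 young, 4 aged IgG2a and 4 aged aPD1ab libraries, numbered here in the order of the table only to name them. Young mice received no antibody, so age and injection cannot be told apart in either comparison with them. The fraction was kidney cortex digest retained on magnetic beads through nephrin antibodies, and all 8 podocyte markers were present in every group, at a summed 261 to 1388 CPM (counts scaled to the TMM-adjusted library size), next to B cell markers (73.7 to 493 CPM) and plasma cell markers (198 to 1086 CPM).

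An immunoglobulin variable gene is a germline segment that encodes most of the antigen-binding domain of an antibody chain. Each B cell joins 1 heavy chain segment to D and J segments and 1 kappa or lambda segment to a J segment, and its descendants carry the same joined genes, so a bulk library reads the mixture of variable genes that its B cells and plasma cells transcribe. Plasma cells transcribe these genes far more strongly than resting B cells do, and podocytes are not known to rearrange them.

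The germline exons of the 3 members with the most counts are shown because the usage described here turns on them. They are the last 300 bases of the variable exon, read from GENCODE M21 on GRCm38, 5′ to 3′ on the coding strand. In the first 3 lines the capitals mark the last in-frame cysteine codon (TGT or TGC) and the bases after it, the germline start of the antigen-contacting CDR3 loop. In the fourth line the capitals mark the 15 bases of Igkv4-71 that differ from Igkv4-55 over the same 300 positions. Igkv4-71 is shown because its counts followed those of Igkv4-55.
Ighv1-53: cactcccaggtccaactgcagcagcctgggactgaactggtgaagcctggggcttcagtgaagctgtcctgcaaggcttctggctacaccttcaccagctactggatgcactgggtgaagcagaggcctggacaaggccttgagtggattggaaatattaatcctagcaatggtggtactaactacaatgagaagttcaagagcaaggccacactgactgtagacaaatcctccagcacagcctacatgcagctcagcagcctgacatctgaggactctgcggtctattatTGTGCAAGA
Igkv3-2: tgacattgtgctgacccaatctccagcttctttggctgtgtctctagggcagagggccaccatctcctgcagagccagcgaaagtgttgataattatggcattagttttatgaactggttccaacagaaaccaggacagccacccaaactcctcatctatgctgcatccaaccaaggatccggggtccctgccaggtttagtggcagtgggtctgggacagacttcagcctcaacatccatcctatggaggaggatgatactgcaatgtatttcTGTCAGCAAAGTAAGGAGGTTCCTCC
Igkv4-55: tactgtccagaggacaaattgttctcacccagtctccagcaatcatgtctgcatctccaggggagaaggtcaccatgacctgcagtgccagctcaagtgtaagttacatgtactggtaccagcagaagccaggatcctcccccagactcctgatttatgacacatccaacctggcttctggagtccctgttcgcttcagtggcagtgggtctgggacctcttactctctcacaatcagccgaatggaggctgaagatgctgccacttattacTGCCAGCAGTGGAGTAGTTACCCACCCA
Igkv4-71: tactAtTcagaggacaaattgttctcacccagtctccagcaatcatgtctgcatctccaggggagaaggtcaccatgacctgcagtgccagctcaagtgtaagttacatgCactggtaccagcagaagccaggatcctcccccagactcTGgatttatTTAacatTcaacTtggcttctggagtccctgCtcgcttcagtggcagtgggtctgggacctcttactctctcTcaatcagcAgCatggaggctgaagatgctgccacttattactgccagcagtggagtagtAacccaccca
Ighv1-53 lies at chr12:115158403-115158702, Igkv3-2 at chr6:70698768-70699067, Igkv4-55 at chr6:69607275-69607574 and Igkv4-71 at chr6:69243160-69243459. Igkv3-2 is on the plus strand and the others are on the minus strand. All 4 stretches are coding exon.

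The nearest other germline genes set how well these can be told apart. Over the spliced transcript, Ighv1-53 was 96.3% identical to the pseudogene Ighv1-62, which had 11 counts in all, and shared a longest exact run of 81 bases with it. Igkv3-2 was 90.3% identical to Igkv3-5, with a longest run of 86 bases. Igkv4-55 was 94.5% identical to Igkv4-61 (longest run 73 bases) and 88.9% identical to Igkv4-71 (longest run 103 bases). Identity was taken over the longer transcript, so unequal annotated lengths lower it. Those of Igkv4-71 and Igkv4-55 are 352 and 379 bases, and over the 300 bases shown only 15 differ. Somatic mutation and read length also bear on how reads are assigned between such genes, so the counts of close relatives are uncertain against each other. A plain case is Igkv1-117 and Igkv1-110, which were 96.8% identical with a shared run of 142 bases.

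Variable gene RNA was a small part of each library and was higher in most aged mice. The summed level of all members in the 5 young libraries was 183, 76.8, 158, 144 and 205 CPM. In the 4 aged IgG2a libraries it was 1264, 1243, 1312 and 2676 CPM. In the 4 aged aPD1ab libraries it was 1208, 127, 1206 and 1454 CPM. Every aged IgG2a library therefore lay above every young one, while aged aPD1ab library 2 lay within the young range and the other 3 aPD1ab libraries lay far above it. The ratio of medians to young was 8.16 for aged IgG2a and 7.65 for aged aPD1ab, and the ratio of aPD1ab to IgG2a was 0.937 with overlapping libraries. No test is given for a sum over chosen genes. In a bulk fraction, more cells of a type and more RNA per cell cannot be told apart. These levels rest on 2516 to 51720 variable gene counts per library, or 0.00909% to 0.189% of library totals between 19912969 and 32717100.

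By locus, Ighv was at 31.7 to 81.4 CPM in young, 456 to 1031 in aged IgG2a and 44.5 to 480 in aged aPD1ab libraries. Igkv was at 39.1 to 111, 767 to 1560 and 77.3 to 953 CPM. Iglv was at 5.24 to 16.04, 14.9 to 84.9 and 5.05 to 25.7 CPM. Heavy and kappa levels in aged IgG2a libraries did not overlap those of young libraries, and lambda levels did.

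**Figure D1:**
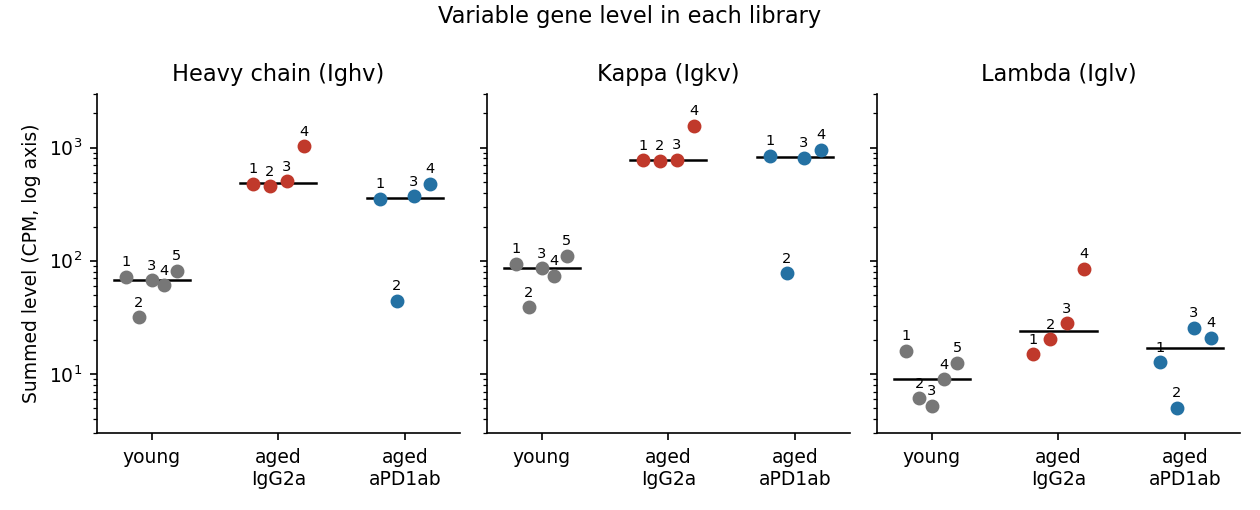
Summed level of the heavy, kappa and lambda variable genes in each library, in CPM on a log axis, with the library number above each point and a line at the group median. The aged IgG2a points lie above all young points for heavy and kappa genes, and aged aPD1ab library 2 lies at the level of the young libraries at 127 CPM in all.

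The balance of light chain types differed as well. Lambda made up 14.6%, 13.5%, 5.77%, 10.9% and 10.1% of the light chain variable counts in young libraries. It made up 1.90%, 2.56%, 3.48% and 5.16% in aged IgG2a libraries and 1.49%, 6.13%, 3.07% and 2.14% in aged aPD1ab libraries. All aged IgG2a libraries were below all young ones, and for aPD1ab only library 2 was above the lowest young library. The ratio of light to heavy chain counts was 1.35 to 1.52 in young, 1.60 to 1.73 in aged IgG2a and 1.85 to 2.43 in aged aPD1ab libraries, with no overlap between groups. Since counts are not divided by gene length, this ratio is read only between groups.

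Young libraries spread their counts over many genes. The effective number of genes (the exponential of the Shannon entropy of the shares, equal to the number of genes if all were used alike) was 85.2, 86.1, 76.6, 75.5 and 89.5. In aged IgG2a libraries it was 14.9, 66.9, 77.9 and 77.8, and in aged aPD1ab libraries it was 60.5, 46.2, 44.0 and 52.8. All aged aPD1ab libraries lay below all young libraries, whereas aged IgG2a libraries 3 and 4 lay inside the young range and library 1 was the lowest of all. Without aged IgG2a library 1 the median for that group was 77.8 rather than 72.3, and without aged aPD1ab library 2 the aPD1ab median was 52.8 rather than 49.5. At an equal depth of 2516 counts, 131 to 162 members would be seen in a young library, 115 to 153 in an aged IgG2a library and 106 to 141 in an aged aPD1ab library. These ranges overlapped between the groups.

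Dominance gives the same data from the top of the list. The most abundant member held 4.91% to 6.47% of the variable gene counts in young libraries. It held 29.2%, 8.99%, 10.4% and 9.23% in aged IgG2a and 10.4%, 8.83%, 21.4% and 13.6% in aged aPD1ab libraries, all above the young range. The 10 most abundant members together held 30.4% to 33.9% in young, 80.4%, 41.3%, 35.2% and 36.4% in aged IgG2a and 44.2%, 50.2%, 52.2% and 47.1% in aged aPD1ab libraries. The number of genes needed for 50% of the counts was 19 to 23 in young and 9 to 13 in aged aPD1ab libraries. In aged IgG2a library 1 it was 2, and in the other 3 it was 15 to 21.

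**Figure D2:**
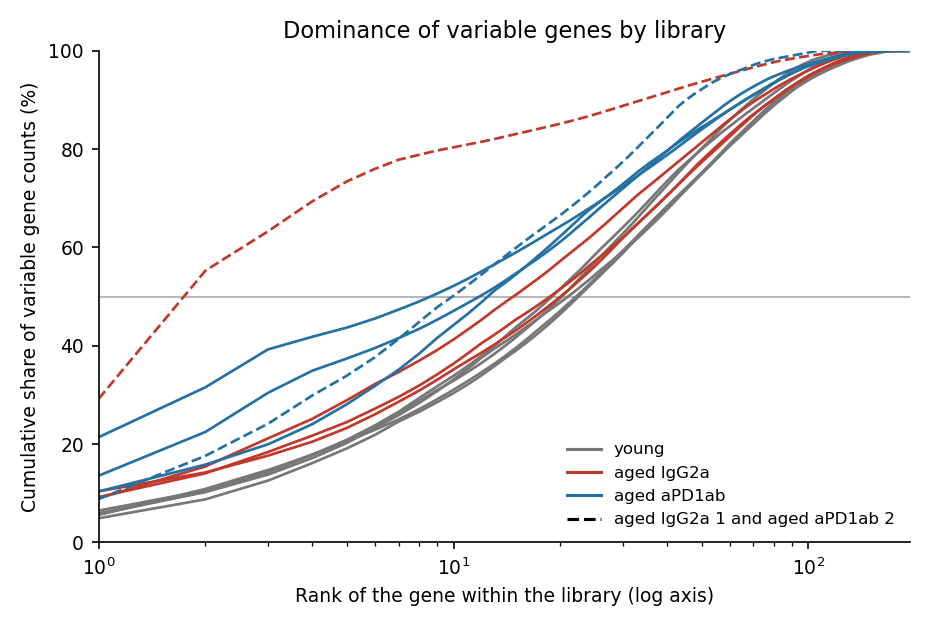
Cumulative share of the variable gene counts, in percent, against the rank of the gene within its library on a log axis, with 1 line per library. The young lines lie together and start lowest, and they reach 50% within 19 to 23 genes. Aged IgG2a libraries 3 and 4 meet them there, within 21 and 19 genes. The aged aPD1ab lines reach 50% within 9 to 13 genes, and the dashed line of aged IgG2a library 1 reaches it within 2.

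The leading heavy chain gene differed from mouse to mouse in the young group. It was Ighv5-17, Ighv6-3, Ighv1-26, Ighv1-64 and Ighv1-53 in turn, with 6.93% to 11.2% of the heavy chain counts. In aged IgG2a libraries it was Ighv1-53 in library 1 (69.0%, 95% Wilson interval 68.3 to 69.7), Ighv1-80 in library 2 (17.7%), Ighv1-53 in library 3 (10.0%) and Ighv9-3 in library 4 (8.66%). In all 4 aged aPD1ab libraries it was Ighv1-53, with 12.8%, 25.1%, 25.1% and 24.1%. For aPD1ab library 2, with the fewest heavy chain counts of that group, the interval was 22.6 to 27.7. Such intervals cover counting error only and are too narrow, because 72.3% of the counts from 1 to 20 were even, as if both reads of a fragment were counted.

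Among kappa genes, Igkv1-110 led in 4 young libraries and Igkv1-117 in the other, with 7.12% to 11.5% of the kappa counts. Igkv4-55 led in aged IgG2a libraries 1 and 2 (47.9% and 14.6%), and Igkv3-2 led in libraries 3 and 4 (17.5% and 15.8%). In aged aPD1ab mice, Igkv4-63 led in library 1 (14.8%) and Igkv3-2 in libraries 2, 3 and 4 (14.5%, 31.8% and 20.7%). So no kappa gene that led in a young library led in an aged one. Iglv1 was the most abundant lambda gene in all 13 libraries, at 45.9% to 89.1% of the lambda counts.

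**Figure D3:**
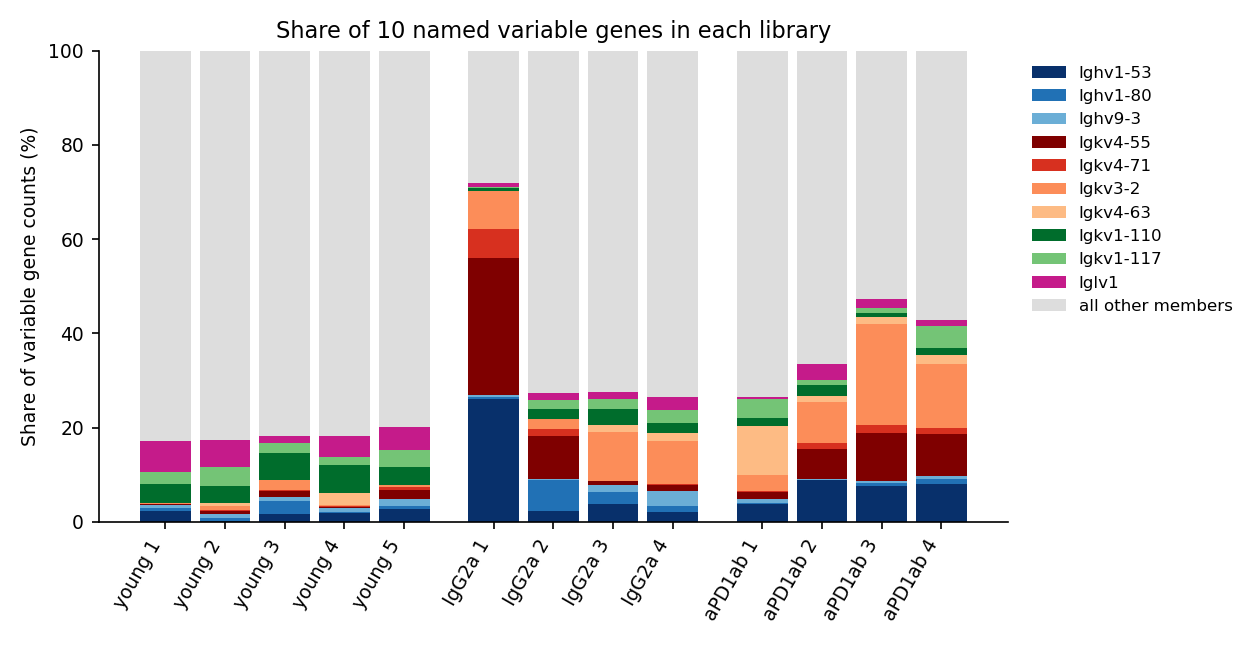
Share of all variable gene counts, in percent, taken by 10 named members (stacked colours) and by all other members (grey) in each library. The 10 genes took 17.1% to 20.2% in young libraries, 72.0% in aged IgG2a library 1, 26.4% to 27.6% in the other aged IgG2a libraries and 26.5% to 47.3% in aged aPD1ab libraries.

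The 3 members with the most counts, Igkv4-55, Igkv3-2 and Ighv1-53, held 8.96%, 8.79% and 8.07% of all variable gene counts pooled over the libraries, and the next, Igkv1-117, held 2.53%. Pooled counts weigh deep libraries most, and without aged IgG2a library 1 the shares were 5.00% for Igkv4-55, 8.95% for Igkv3-2 and 4.55% for Ighv1-53. As means of the 13 library shares they were 5.52%, 6.22% and 5.47%, so Igkv3-2 then ranked first and the same 3 genes still led. Ighv1-53 (ENSMUSG00000093894) was at 4.27, 0.0611, 2.46, 2.55 and 5.64 CPM in young libraries. It was at 330, 28.9, 50.4 and 58.3 CPM in aged IgG2a and at 45.0, 11.2, 92.8 and 116 CPM in aged aPD1ab libraries. Every aged library was above every young one. The log2 fold change to young was 5.34 for aged IgG2a (SE 0.95, edgeR adjusted p = 0.0111) and 4.50 for aged aPD1ab (SE 0.81, edgeR adjusted p = 0.00639). Without aged IgG2a library 1 the former was 4.01. As a share of heavy chain counts, Ighv1-53 was 0.193% to 6.93% in young and 12.8% to 25.1% in aged aPD1ab libraries, and in aged IgG2a libraries 2 to 4 it was 5.65% to 10.0%, beside 69.0% in library 1.

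Igkv3-2 (ENSMUSG00000095351) rose in both aged groups. It was at 0.456, 0.763, 3.14, 0.570 and 0.933 CPM in young libraries. It was at 101, 25.9, 136 and 247 CPM in aged IgG2a and at 39.5, 11.2, 258 and 197 CPM in aged aPD1ab libraries. The lowest aged library, aPD1ab library 2, was above the highest young library. The log2 fold change to young was 6.84 for aged IgG2a (SE 0.77, edgeR adjusted p = 0.00243) and 6.78 for aged aPD1ab (SE 0.97, edgeR adjusted p = 0.00364). Without young library 3 they were 7.60 and 7.53, and without aged aPD1ab library 3 the latter was 6.18. Between the aged groups it was -0.03 (SE 0.91, edgeR adjusted p = 0.985), which does not show that they were alike. Its share of kappa counts was 0.485% to 3.67% in young, 3.37% to 17.5% in aged IgG2a and 4.69% to 31.8% in aged aPD1ab libraries, so the shares of the young and IgG2a groups overlapped although the levels did not.

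Igkv4-55 (ENSMUSG00000096833) was at 0.415, 0.489, 2.10, 0.436 and 3.99 CPM in young libraries. It was at 369.3, 112, 9.96 and 31.9 CPM in aged IgG2a and at 18.6, 8.26, 123 and 130 CPM in aged aPD1ab libraries. All aged libraries were above all young ones, and the 2 aged groups overlapped widely. The log2 fold change to young was 6.52 for aged IgG2a (SE 1.14, edgeR adjusted p = 0.0105), 5.19 without library 1, and 5.58 for aged aPD1ab (SE 0.97, edgeR adjusted p = 0.00557). Without young library 5 they were 7.30 and 6.37. Igkv4-71, noticed after its values were seen, held 12.5% to 28.04% as many counts as Igkv4-55 in every library, with a median of 16.6%. In young libraries 1, 2 and 4 this ratio rests on 2 counts of Igkv4-71 each, below the floor of 3 counts. Another relative, Igkv4-59, ranged from 5.91% to 985% of Igkv4-55 across the same libraries.

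Other leading genes belonged to 1 or a few mice. Ighv1-80 was at 80.5 CPM in aged IgG2a library 2, at 30.3 and 33.7 CPM in libraries 4 and 3, at 4.69 CPM in library 1 and at 0.0407 to 16.4 CPM in aged aPD1ab libraries. Igkv4-63 was at 125 CPM in aged aPD1ab library 1, at 1.51 to 27.4 CPM in the other aPD1ab libraries and at 0 to 3.59 CPM in young libraries. Ighv9-3 was at 89.3 CPM in aged IgG2a library 4 and at 4.72 to 18.3 CPM in the other 3. Such concentration was common. In 37 of the 193 members (19.2%) a single library held over 50% of the summed CPM, and in 18 of these it was aged IgG2a library 4. Among members that passed the filter on low counts it was 18 of 148 (12.2%), beside 0.159% of all 16330 genes that passed. Aged IgG2a library 4 also had the highest summed level of all members (2676 CPM). The measure uses CPM and not shares, so it partly follows that level.

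**Figure D4:**
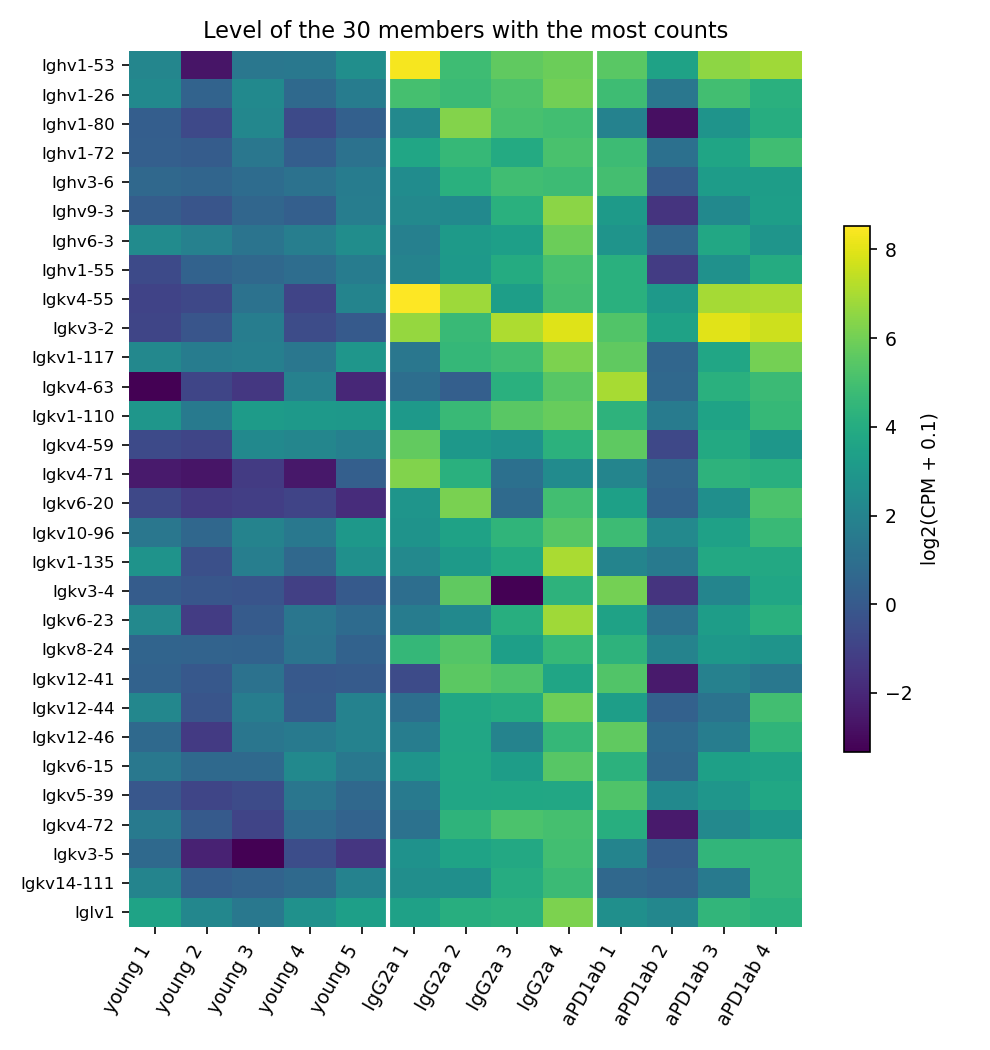
Level of the 30 members with the most counts as log2(CPM + 0.1), with 1 column per library and genes grouped by locus. Most of these members are low in all young libraries and in aged aPD1ab library 2. The brightest cells are Igkv4-55 and Ighv1-53 in aged IgG2a library 1, and Igkv3-2 is bright in several aged libraries of both groups.

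Of 34 gene families, the 8 with 8 or more members are described, a limit set after their values were seen. Young and aged aPD1ab libraries did not overlap in 4 of the 8, and in 5 of all 34. Ighv1, the largest heavy chain family with 50 members, held 49.5% to 66.7% of the heavy chain counts in young, 57.7% to 89.1% in aged IgG2a and 67.6% to 76.1% in aged aPD1ab libraries. Ighv5 held 6.70% to 15.2% in young, 1.41% to 8.49% in aged IgG2a and 1.92% to 3.68% in aged aPD1ab libraries. Igkv3 held 2.45% to 6.65% of the kappa counts in young, 14.0% to 22.7% in aged IgG2a and 13.9% to 38.7% in aged aPD1ab libraries, and was the only family of the 34 in which aged IgG2a and young libraries did not overlap. Igkv1 held 17.2% to 26.3% in young, 2.18% to 17.3% in aged IgG2a and 5.10% to 11.1% in aged aPD1ab libraries. The largest kappa family, Igkv4 with 26 members, overlapped between all groups, at 12.6% to 32.9%, 14.5% to 68.3% and 21.0% to 33.4%. Ighv2, Igkv6 and Igkv8 overlapped between all groups as well, and the aged groups overlapped in every family.

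The overlap of usage between mice was the sum over members of the smaller of their 2 shares. Pairs of young libraries overlapped by 53.7% to 64.0% (median 59.7%). Pairs of aged IgG2a libraries overlapped by 35.9% to 69.5% (median 46.5%), or 54.1% to 69.5% without library 1, and pairs of aged aPD1ab libraries by 44.7% to 69.2% (median 53.0%). Young and aged aPD1ab libraries overlapped by 40.7% to 52.6%, below every pair of young libraries. Young and aged IgG2a libraries overlapped by 25.3% to 63.4% (median 53.4%) and the 2 aged groups by 35.6% to 61.9% (median 54.4%), both reaching into the range of the young pairs. Pairs share libraries, so these values are a description. Of the members, 75 had a count in all 13 libraries. Only 4 had a count in aged libraries and none in young ones (Igkv4-62, Igkv3-9, Ighv3-5 and Igkv4-54), and 0 were seen in young libraries alone.

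Each member was also tested, in a fit of the whole table. In aged IgG2a vs. young, 132 of the 193 members passed the filter on low counts, and 84 were called higher (edgeR adjusted p under 0.05 and more than 2-fold) and 0 lower. Of all genes tested, 3.89% were called higher and 4.59% lower. At an unadjusted p under 0.05, 116 members were higher and 0 lower. The calls were 35 Ighv, 48 Igkv and 1 Iglv member (Iglv1). The median log2 fold change of the tested members was 2.98, beside 0.04 for all genes tested, and all 132 were above 0. A member could pass the filter through its counts in the aged libraries alone. The median and the signs are therefore partly set by the filter and describe only the members tested. In 43 of all 193 members, tested or not, every aged IgG2a library was above every young one, and in 0 every one was below. Of the genes that passed the filter, 4.75% were above and 9.74% below in this way. DESeq2 and limma voom each called 105 members higher (5.16% and 7.36% of all genes) and 1 edgeR fit of all groups 67 (3.09%), each with 0 lower (5.78%, 8.16% and 4.26%). The count depended on the libraries. It was 114 without aged IgG2a library 1, beside 8.16% of all genes called higher and 8.92% lower, and it fell to 44, 36 and 37 without aged IgG2a libraries 2, 3 and 4 and to 40, 42, 40 and 42 without young libraries 1, 2, 3 and 4.

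The smallest p in this comparison belonged to Igkv8-24, at 1.23 to 2.28 CPM in young and 10.2 to 40.7 CPM in aged IgG2a libraries (log2 fold change 4.13, SE 0.38, edgeR adjusted p = 0.00119). Ighv1-72 followed with 3.87 and Ighv6-6 with 3.73 on the log2 scale. The other members among the 10 with the smallest p were Igkv3-2 (6.84), Ighv1-26 (3.77), Ighv3-6 (3.43), Ighv2-2 (4.16), Igkv3-10 (5.25), Ighv14-4 (6.23) and Igkv4-57 (3.91), each a log2 fold change. A single library moved 4 of these by over 1.5-fold. Ighv14-4 was at 5.05 without aged IgG2a library 2, Igkv3-2 at 7.60 without young library 3, Igkv3-10 at 6.19 without young library 1 and Igkv4-57 at 4.67 without young library 5. Ighv1-72 shares a run of 220 bases with Ighv1-62-3, so its counts are uncertain. Of the genes that led in young libraries, Igkv1-110 rose in level by 2.30 (log2; edgeR adjusted p = 0.0201). This was 2.13 and 1.95 and not called without aged IgG2a libraries 3 and 4 (edgeR adjusted p = 0.0632 and 0.0532). Its share of the kappa counts was 7.03% to 11.5% in young and 1.07% to 5.73% in aged IgG2a libraries. So its level was higher while its share was lower, and these calls concern levels and not shares. Ighv6-3 was at 2.39 (edgeR adjusted p = 0.0451), but it was not called without any one of the young libraries or of aged IgG2a libraries 2 to 4 and was at 0.95 without library 4. Ighv5-17 was at 2.35 (edgeR adjusted p = 0.0918) and did not pass.

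In aged aPD1ab vs. young, 120 members passed the filter, and 40 were called higher and 0 lower, beside 2.1% of all genes called higher and 2.69% lower. At an unadjusted p under 0.05, 67 were higher and 0 lower. They were 15 Ighv and 25 Igkv members and no Iglv member. The median log2 fold change of the tested members was 2.08, beside 0.02 for all genes, with the same limit from the filter. Aged aPD1ab library 2 weighed on this count, which was 75 without it, with 0 lower (2.35% and 2.83% of all genes), while without young library 2 it was 23. Of all 193 members, tested or not, the groups did not overlap in 13, all higher with aPD1ab. Of the genes that passed the filter, 11.3% were higher and 10.6% were lower in every library. DESeq2 called 53 members higher (2.56% of all genes), limma voom 48 (2.3%) and 1 edgeR fit of all groups 38 (1.83%), each with 0 lower (3.21%, 2.99% and 2.35%).

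The 10 members with the smallest p, by log2 fold change, were Igkv3-2 (6.78), Igkv8-24 (2.74), Igkv6-20 (5.24), Ighv1-81 (3.05), Ighv14-4 (5.67), Igkv4-55 (5.58), Igkv5-39 (3.79), Ighv1-53 (4.50), Ighv1-72 (3.53) and Igkv4-71 (5.05). Leaving out 1 library moved 8 of them by over 1.5-fold. Without aged aPD1ab library 1, Igkv8-24 was at 2.10, Ighv1-81 at 2.40 and Igkv5-39 at 2.88. Without aged aPD1ab library 4, Igkv6-20 was at 4.03 and Ighv14-4 at 4.71. Without young library 5, Igkv4-55 was at 6.37 and Igkv4-71 at 6.36, and Igkv3-2 was at 7.53 without young library 3 and 6.18 without aged aPD1ab library 3. All 10 were called higher in each of these fits. Of the 40 members called here, 36 were also called higher in aged IgG2a vs. young, but both comparisons use the same young libraries. Ighv14-4 was at 0 to 0.244 CPM in young libraries, at 3.31, 30.6, 1.67 and 10.7 CPM in aged IgG2a and at 6.81, 0.489, 5.50 and 19.8 CPM in aged aPD1ab libraries, above every young library in each case. Ighv1-80 and Ighv9-3, called with aged IgG2a, stood at log2 fold changes of 2.17 and 2.00 with aPD1ab (edgeR adjusted p = 0.136 and 0.0748), and neither was called between the aged groups.

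Aged aPD1ab vs. aged IgG2a had 142 members tested, with 0 called higher and 0 lower by edgeR, as 0.0% of all genes were. At an unadjusted p under 0.05 there were 11 members, 10 lower and 1 higher, and the lowest adjusted p of a member was 0.109 by edgeR, for Ighv1-63. The median log2 fold change of the tested members was -0.82, beside -0.01 for all genes. DESeq2 called 1 higher (the Igkv1 family gene ENSMUSG00000076525, named after its value was seen) and 8 lower, beside 4.82% and 2.3% of all genes. Limma voom with quality weights called 0 and 8, beside 8.14% and 6.82%, and 1 edgeR fit of all groups 0 and 5 (Ighv1-63, Ighv6-6, Ighv8-12, Ighv9-4 and Igkv4-86), beside 4.92% and 1.92%. Without aged IgG2a library 1 edgeR called 12 lower and 0 higher, beside 5.81% of all genes called lower and 8.46% higher.

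Among those 12, Ighv5-6 was at 0.147, 9.57, 4.31 and 9.68 CPM in aged IgG2a and at 0.761, 0.448, 0.681 and 1.32 CPM in aged aPD1ab libraries. Its log2 fold change was -3.28 without library 1 (SE 0.43, edgeR adjusted p = 0.00640) and -2.88 with it (SE 0.95, edgeR adjusted p = 0.120). DESeq2 called it lower with all libraries in (log2 fold change -2.92, adjusted p = 0.0134), so the call depended on the tool as well as on library 1. Ighv8-12 was at 2.49, 12.1, 10.7 and 24.9 CPM in aged IgG2a and at 4.08, 1.38, 2.72 and 1.63 CPM in aged aPD1ab libraries. Ighv1-63 was lower in every aPD1ab library, at 0.557 to 3.52 CPM in aged IgG2a and 0 to 0.200 CPM in aged aPD1ab libraries, close to the level of 3 counts (0.0843 to 0.207 CPM). Without library 1 the log2 fold changes of Ighv8-12, Ighv1-63, Ighv6-6, Igkv15-103, Ighv5-9-1, Ighv10-1, Igkv4-86, Igkv14-100 and Ighv1-54 lay between -4.59 and -2.13. Over all 193 members, tested or not, no overlap between the aged groups was seen for 4 lower members (Ighv5-4, Ighv9-4, Ighv1-63 and Igkv10-95) and 1 higher (Igkv4-51, at most 0.113 CPM). Of the genes that passed the filter, 4.73% were lower and 7.25% higher in every library.

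**Figure D5:**
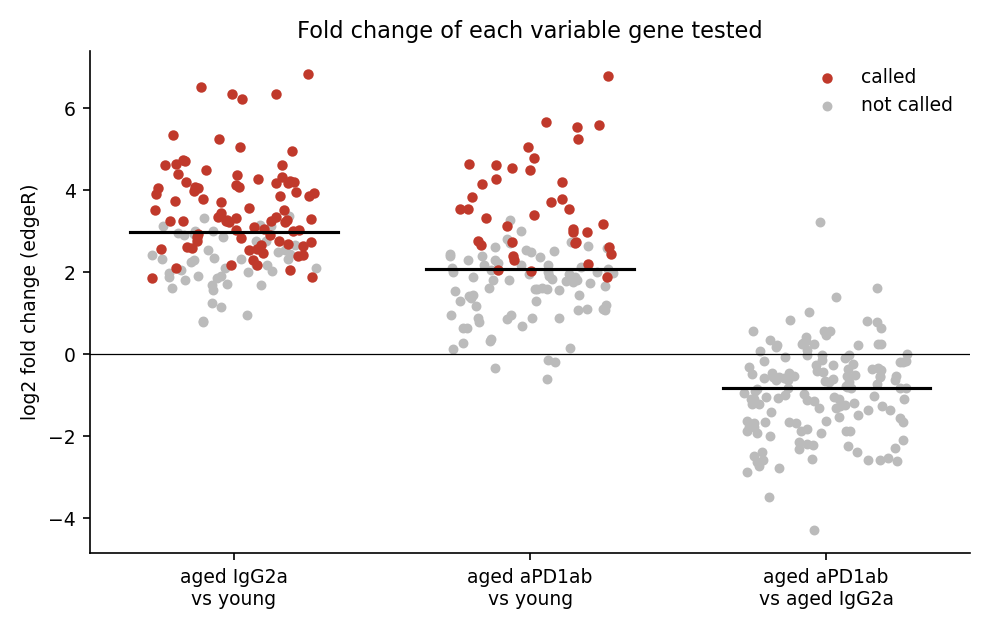
log2 fold change (edgeR) of each member tested in the 3 comparisons, with called members in red, others in grey and a line at the median. The medians are 2.98 for aged IgG2a and 2.08 for aged aPD1ab against young and -0.82 between the aged groups, where no member is called.

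Constant region genes rose in both comparisons with young. Of 13 constant region and J chain genes, 9 were called higher in aged IgG2a vs. young, 7 in aged aPD1ab vs. young and 0 between the aged groups by edgeR, which had 0 there at an unadjusted p under 0.05 (DESeq2 and limma voom called 0). Igkc, the kappa constant region, was at 54.0 to 173 CPM in young, 1565 to 3001 in aged IgG2a and 169 to 2823 in aged aPD1ab libraries. Ighm, the constant region of IgM, made up 95.8% of the heavy chain constant counts in aged IgG2a library 1, where Ighv1-53 led so strongly, and 53.4% to 69.8% in the other 3. Igha, the constant region of IgA, was the second largest there at 26.4% to 44.1%. In aged aPD1ab libraries Ighm made up 69.0% to 90.7%, and in young libraries 35.7% to 74.9%.

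Of 10 plasma cell markers, 5 were called higher in aged IgG2a vs. young (Jchain, Mzb1, Tnfrsf17, Prdm1 and Derl3) and 3 in aged aPD1ab vs. young. Jchain is also counted with the constant region genes. Between the aged groups edgeR called 0 plasma cell markers, with 2 lower at an unadjusted p under 0.05. DESeq2 called 0 there, and limma voom called Prdm1 and Tnfrsf13b lower. Of 11 B cell markers 0 were called in any comparison by edgeR, DESeq2 or limma voom, and at an unadjusted p under 0.05 edgeR had 1 lower in aged aPD1ab vs. young and 0 elsewhere. The summed plasma cell markers were at 198 to 270 CPM in young, 522 to 1086 in aged IgG2a and 202 to 722 in aged aPD1ab libraries, and the B cell markers at 104 to 302, 95.6 to 493 and 73.7 to 274 CPM. Aged aPD1ab library 2 had the lowest aged values of both. Their part in the result was not tested. Proximal tubule markers moved with the groups too, with 7 of 7 lower in aged IgG2a vs. young. They were at 8868 CPM in aged aPD1ab library 2 against 2714 to 4866 CPM in the other aPD1ab libraries. In aged IgG2a libraries they were at 2889 CPM in library 1 and 637, 941 and 917 CPM in libraries 2, 3 and 4. Aged IgG2a library 1 was also apart from its group in summed macrophage markers (1898 CPM, others 4585 to 6199) and T cell markers (18.8 CPM, others 40.1 to 52.3). The podocyte markers Nphs1, Wt1, Podxl, Synpo and Plce1 were lower in aged IgG2a vs. young, and Podxl and Plce1 in aged aPD1ab vs. young. Of 7 macrophage markers 5 were higher in aged IgG2a vs. young and 0 in aged aPD1ab vs. young by edgeR, DESeq2 or limma voom, where edgeR had 2 higher at an unadjusted p under 0.05. Between the aged groups edgeR called 0 macrophage and 0 proximal tubule markers. At an unadjusted p under 0.05 it had 4 of the former lower and 5 of the latter higher. DESeq2 called 3 macrophage markers lower and 4 proximal tubule markers higher there, and limma voom 7 and 6. Of 7 T cell markers edgeR called 1, Cd3d, higher in each comparison with young. At an unadjusted p under 0.05 it had 5 higher in aged IgG2a vs. young and 2 in aged aPD1ab vs. young. In aged IgG2a vs. young DESeq2 called 4 higher, and limma voom called 3 without Cd3d. Limma voom called 0 in aged aPD1ab vs. young. Of 5 endothelial markers edgeR called 1, Tek, lower in aged aPD1ab vs. young. It called 0 in aged IgG2a vs. young, where all 5 were lower at an unadjusted p under 0.05. Their part in the result was not tested either.

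Genes of variable gene assembly were mostly too low to test. Of 7 recombination and hypermutation genes 3 were tested and 0 called by edgeR, DESeq2 or limma voom (1 higher at an unadjusted p under 0.05 by edgeR, in aged IgG2a vs. young). Rag1 and Rag2, the recombinase subunits, had 0 counts in every library. Of 3 surrogate light chain genes 1 was tested and 0 called, with 0 at an unadjusted p under 0.05. Of 5 transcription factor genes of the immunoglobulin loci 0 were called by edgeR, while DESeq2 and limma voom called Pou2f2 higher in aged IgG2a vs. young and limma voom called it lower in aged aPD1ab vs. aged IgG2a. At an unadjusted p under 0.05 edgeR had 1 of the 5 higher in the first of these comparisons and 2 lower in each of the others. Of 12 joining segments 8 were tested and edgeR called 1, Igkj5, higher in aged IgG2a vs. young, where DESeq2 called 3 and limma voom 5. In aged aPD1ab vs. aged IgG2a edgeR called 0, with 3 lower at an unadjusted p under 0.05, while DESeq2 called Ighj1, Ighj2 and Ighj3 lower and limma voom Ighj1, Ighj2, Ighj3 and Ighj4. The 4 variable genes linked to B-1a cells, the innate-like B cells of body cavities, were at a summed 0.470 to 2.30 CPM in young, 3.07 to 10.2 in aged IgG2a and 0.936 to 10.3 in aged aPD1ab libraries, and 1 of them, Igkv4-91, was called higher in aged IgG2a vs. young (log2 fold change 1.88, SE 0.40, edgeR adjusted p = 0.0183). Of the 4, 2 were tested in either comparison with young, and the call was lost without aged IgG2a library 3 (edgeR adjusted p = 0.0591). The share of Igkv4-91 in the kappa counts was lower, at 0.573% to 2.58% in young and 0.128% to 0.532% in aged IgG2a libraries. In 1 edgeR fit of all groups, which tested all 4, Igkv4-91 was not called and Ighv11-2 was called higher in both comparisons with young.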

How the data were processed

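mRNA-Seq of podocyte fractions was deposited by the authors as read counts per Ensembl gene, whole numbers without normalization. HISAT2 and featureCounts and the builds GRCm38 and mm10 are named in the submitters' processing notes. Versions, strand setting and annotation release are not given in the sources used here. Columns were tied to groups by the numbers beside the podocyte points of the study's principal component plot, and 2 columns without one were not used. Symbols and positions came from GENCODE M21 (GRCm38).

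Each pair of groups was fitted on the whole table in R 4.3.3 with edgeR 4.0.16 (TMM, filterByExpr, robust quasi-likelihood test, Benjamini-Hochberg), with calls made past 2-fold at 0.05 after adjustment. DESeq2 1.42.0, limma 3.58.1 (voom), other normalization and filters and left-out libraries were alternatives. The edgeR fit was tested on simulated data. Usage was computed in Python 3.11.15, and identities with edlib 1.3.9.post1. A share in a library carries a Wilson interval at 95%. The deposited counts per library set the precision, with 3 counts as the floor. The sample titles carry a number each but no column is tied to one, so p-values measure the spread between columns of a group.

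Members, lists and tests were chosen with earlier results of these data known. Levels were given for the 5 Ighv, 5 Igkv and 3 Iglv members with the most counts, the leading Ighv and Igkv of each library and 4 B-1a genes, and fold changes for up to 10 called members with the smallest p per comparison, including those called without aged IgG2a library 1. Igkv4-71, its ratio to Igkv4-55 and single genes behind small counts were chosen after their values were seen. The non-podocyte fraction was not analysed here, and the results of 2 listed genes are not reported here.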

Additional observations from a re-analysis of the deposited data

Results flagged for a closer look

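Of 57 groups of libraries tested for a library far from the others (Dixon's test at 95%), 12 held one. This count cannot be set against the nominal rate of 1 in 20. Some genes were named because they led a library, and several measures rest on the same counts. Each is given as a value with no cause tested. Aged IgG2a library 1 stood apart in its leading variable gene (29.2% of the counts, others 8.99% to 10.4%), in its leading Ighv gene (69.0%, others 8.66% to 17.7%), in its leading Igkv gene (47.9%, others 14.6% to 17.5%) and in Ighv1-53 (330 CPM, others 28.9 to 58.3). Aged IgG2a library 4 stood apart in the summed level of all members (2676 CPM, others 1243 to 1312), in Iglv1 (72.8 CPM, others 10.99 to 18.8) and in Iglv3 (7.19 CPM, others 1.24 to 1.91). Its levels depend on its TMM factor of 0.706. On the plain library total its summed level was 1889 CPM and the others were at 1040 to 1318, a smaller gap that was not tested. Aged aPD1ab library 1 had the lowest share of its leading Ighv gene (12.8%, others 24.1% to 25.1%). Among young libraries, library 3 was high in Ighv1-80 (4.40 CPM, others 0.519 to 1.16) and in Igkv3-2 (3.14 CPM, others 0.456 to 0.933), library 4 was high in Igkv4-63 (3.59 CPM, others 0 to 0.458) and library 2 was low in Igkv1-110 (2.75 CPM, others 7.50 to 8.85).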

How the results depend on the processing

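Directions held under every alternative run for the counts of calls, the usage medians and the listed fold changes of called members. Fold changes that were not called could change sign. Between the aged groups, leaving out aged IgG2a library 1 moved Ighv1-53 from -0.82 to 0.50 and Igkv4-55 from -0.91 to 0.40 (log2). Members called higher in aged IgG2a vs. young numbered 62 to 105 under the other settings (84 as reported) and 36 to 114 with a library left out. For aged aPD1ab vs. young (40 as reported) the count was 24 with no filter on low counts and 23 to 75 with a library left out. Between the aged groups, DESeq2 called 1 higher and 8 lower, voom with quality weights 8 lower and 1 fit of all 3 groups 5 lower, and leaving out a library gave 0 to 12 lower. The cause was not tested. The other alternatives moved the 9 medians of level, effective number and leading share by less than 1 SD. The medians of named levels on the plain library total, chosen after seeing the data, did too. The SD takes in the libraries that stood apart and a median moves little, so 1 SD is a wide limit. No paired analysis was possible because the columns carry no replicate number shared between groups. Young libraries and aged aPD1ab library 2 held only 2516 to 5495 variable gene counts, so values of low members are imprecise there. Of the 193 members, 61 in aged IgG2a vs. young and 73 in aged aPD1ab vs. young were not tested. These failed the filter on low counts, which a member could pass through the aged libraries alone. Counts of near-identical genes, and so the shares of Igkv4-71 or Ighv1-72, depend on how reads were assigned, which could not be redone from counts.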

Other observations

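Of the IgG constant region genes, which are carried on the same transcripts as heavy chain variable genes, Ighg2b, Ighg2c and Ighg3 were called higher by edgeR in both comparisons with young. Ighg1 was at 0.06 and 1.38 on the log2 scale and was not called (edgeR adjusted p = 0.969 and 0.283), and Igha was called with aged IgG2a but not with aged aPD1ab (log2 fold change 1.90, edgeR adjusted p = 0.150). Ighg2b was at 3.77, 10.4, 4.33, 6.85 and 6.05 CPM in young, at 15.4, 72.1, 31.0 and 90.9 CPM in aged IgG2a and at 73.3, 36.2, 50.1 and 128 CPM in aged aPD1ab libraries, so every aged library was above every young one. The log2 fold change to young was 3.12 (SE 0.51, edgeR adjusted p = 0.00878) for aged IgG2a and 3.52 (SE 0.40, edgeR adjusted p = 0.00282) for aged aPD1ab. Aged aPD1ab library 2, within the young range for summed variable genes, was the lowest of its group in Ighg2b but above every young library. Ighd, the constant region of IgD on naive B cells, was at 0.03 and 0.02 on the log2 scale (edgeR adjusted p = 0.978 and 0.977), and its share of the heavy chain constant counts was 5.27% to 13.05% in young, 0.143% to 1.40% in aged IgG2a and 0.542% to 4.08% in aged aPD1ab libraries.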
